A study of Homo sapiens with 8 samples.

Results

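The genes described here are 10 genes best known from neurons and neuroendocrine cells, read in a lung carcinoma cell line: MAP2, NDRG4, SYT1, SNAP25, CHGA, CHGB, NCAM1, STMN2, UCHL1 and TUBB3. Every probe set whose annotation gave exactly 1 gene symbol, equal to 1 of these names, was taken, which yielded 34 of the 49395 probe sets on the array and 10 of 18132 named genes. The genes were selected in part on the array values of MAP2 and NDRG4, which were higher in both knockdowns, so the values of MAP2 and NDRG4 are given as a description and without a test. The other 8 genes were picked as neuronal or neuroendocrine genes with earlier results of these data known.

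The cells were H1299, a long-established line of human lung carcinoma of the non-small cell kind that lacks p53, grown in RPMI-1640 with serum. There were 4 groups and 8 arrays. USF1 knockdown cells carried short hairpin RNA against USF1 and were read on 3 arrays, against 3 arrays of the control for USF1 knockdown. UGT1A3 knockdown cells carried short hairpin RNA against UGT1A3 and were read on 1 array, against 1 array of the control for UGT1A3 knockdown. USF1 is a transcription factor that binds E-box sequences, and UGT1A3 is an enzyme that attaches glucuronic acid to lipophilic compounds. The hairpin sequences, the content of the control construct, the time after transfection and whether a line is 1 clone are not given in the sources used here. Nothing in the labels says that the 3 arrays of a group came from separate cultures, so a p-value here reflects the scatter among these arrays alone, and that scatter may be technical. In bulk RNA, fewer cells that express a gene and less of its RNA per cell cannot be told apart.

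Neurons and neuroendocrine cells release transmitters and peptide hormones from vesicles that fuse with the plasma membrane, a step driven by SNARE proteins such as SNAP25 and triggered by the calcium sensor synaptotagmin (SYT1). Peptide hormones are packed into dense core granules with the granins CHGA and CHGB, and long cell processes rest on microtubules built from tubulins such as TUBB3 and organised by MAP2 and the stathmin STMN2. Many such genes are held silent in other tissues by the repressor REST, and CHGA, NCAM1 (CD56) and synaptophysin (SYP) are the usual stains for neuroendocrine lung tumours.

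RefSeq promoter sequence of GRCh38.p14 was at hand for 6 of the 10 genes, as 12 windows of 300 bases, 250 before and 50 after a transcription start. SNAP25, CHGB, NCAM1 and STMN2 had no window, so their promoters were not searched. The E-box CACGTG, the sequence that USF factors bind, was searched on both strands and occurred in 0 of these 12 windows. It occurred in 7.26% of all 35116 windows of this length, and with only 12 windows nothing is read from the 0. The stretches shown are those before a start of MAP2 and of NDRG4, the pair that was higher in both knockdowns, and those of UCHL1 and CHGA, one bright and one dim in these cells. All are on the plus strand, written 5′ to 3′ up to the base named, and capitals mark a motif match.
MAP2, chr2:209661466-209661495, the 30 bases before a start: gagagaggagtgtgcagagcagagttattt
NDRG4, chr16:58463615-58463714, the 100 bases before a start: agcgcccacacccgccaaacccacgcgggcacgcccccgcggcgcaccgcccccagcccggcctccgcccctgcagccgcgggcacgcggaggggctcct
NDRG4, chr16:58500098-58500127, before a later start: tgggccaggatccctgTATAAAtggcccag
UCHL1, chr4:41256828-41256927, the 100 bases before its start: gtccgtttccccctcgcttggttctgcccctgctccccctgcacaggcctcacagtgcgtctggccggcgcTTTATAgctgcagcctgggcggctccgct
CHGA, chr14:92923085-92923114: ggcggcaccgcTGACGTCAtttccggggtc
The TATA box TATAAA, searched on both strands, began 29 bases before the later NDRG4 start and, on the opposite strand, 29 bases before the UCHL1 start, and was found in 2 of the 12 windows against 11.5% of all windows. The core TGACG of the cAMP response element, a known control element of CHGA, matched on both strands of the CHGA window, where the 2 matches overlap, and in no other of the 12 windows, against 24.6% of all windows. Of the parts of the REST-binding element, CAGCACC was in 0 of the 12 windows (7.75% of all) and GGACAG in 2, of SYT1 and TUBB3 (20.5% of all). A match is a description of letters and not evidence of binding.

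The deposited values were log2 intensities. Array medians lay between 6.53 and 6.55 in the USF1 set while the UGT1A3 control array had 5.59 and its knockdown array 5.63, so levels were compared only within a set. Probe sets whose mean over the arrays of a set fell under the 40th percentile, at 5.63 in the USF1 set and 4.76 in the UGT1A3 set, were called dim and not tested. As a check of the labels, the USF1 probe set fell by 0.40 in its knockdown to 75.6% of control (limma adjusted p = 0.00889, SE 0.08), and it read 4.73 in the UGT1A3 control and 4.98 in its knockdown. No probe set was specific to UGT1A3, and the 9 it shared with other UGT1A genes were all dim in both sets. RNA integrity, read as the mean excess of 3′ over 5′ signal of the GAPDH and actin controls, was 0.26 to 0.30 in the USF1 controls, 0.27 to 0.29 after USF1 knockdown, 0.10 in the UGT1A3 control and 0.13 in its knockdown. Of 10 epithelial and lung markers 5 were above the dim limit in the USF1 set and 7 in the UGT1A3 set. KRT8 and KRT18 were bright, and NKX2-1, a lung lineage factor, peaked at 6.53. SFTPC was above the limit in both sets and KRT7 in the UGT1A3 set only. EPCAM and CDH1 stayed at or under 4.23 on every array. The number of arrays limits the precision.

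In brief, SYT1 rose and SNAP25 fell after USF1 knockdown, while MAP2 and part of the NDRG4 probe sets, on which the choice of genes rested, were higher. Of the UGT1A3 arrays, the knockdown had higher CHGB, SYT1, MAP2 and the same part of the NDRG4 probe sets, without a replicate. UCHL1 and TUBB3 were far above the dim limit on every array and differed little, and CHGA and STMN2 were dim on every array.

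**Figure D1:**
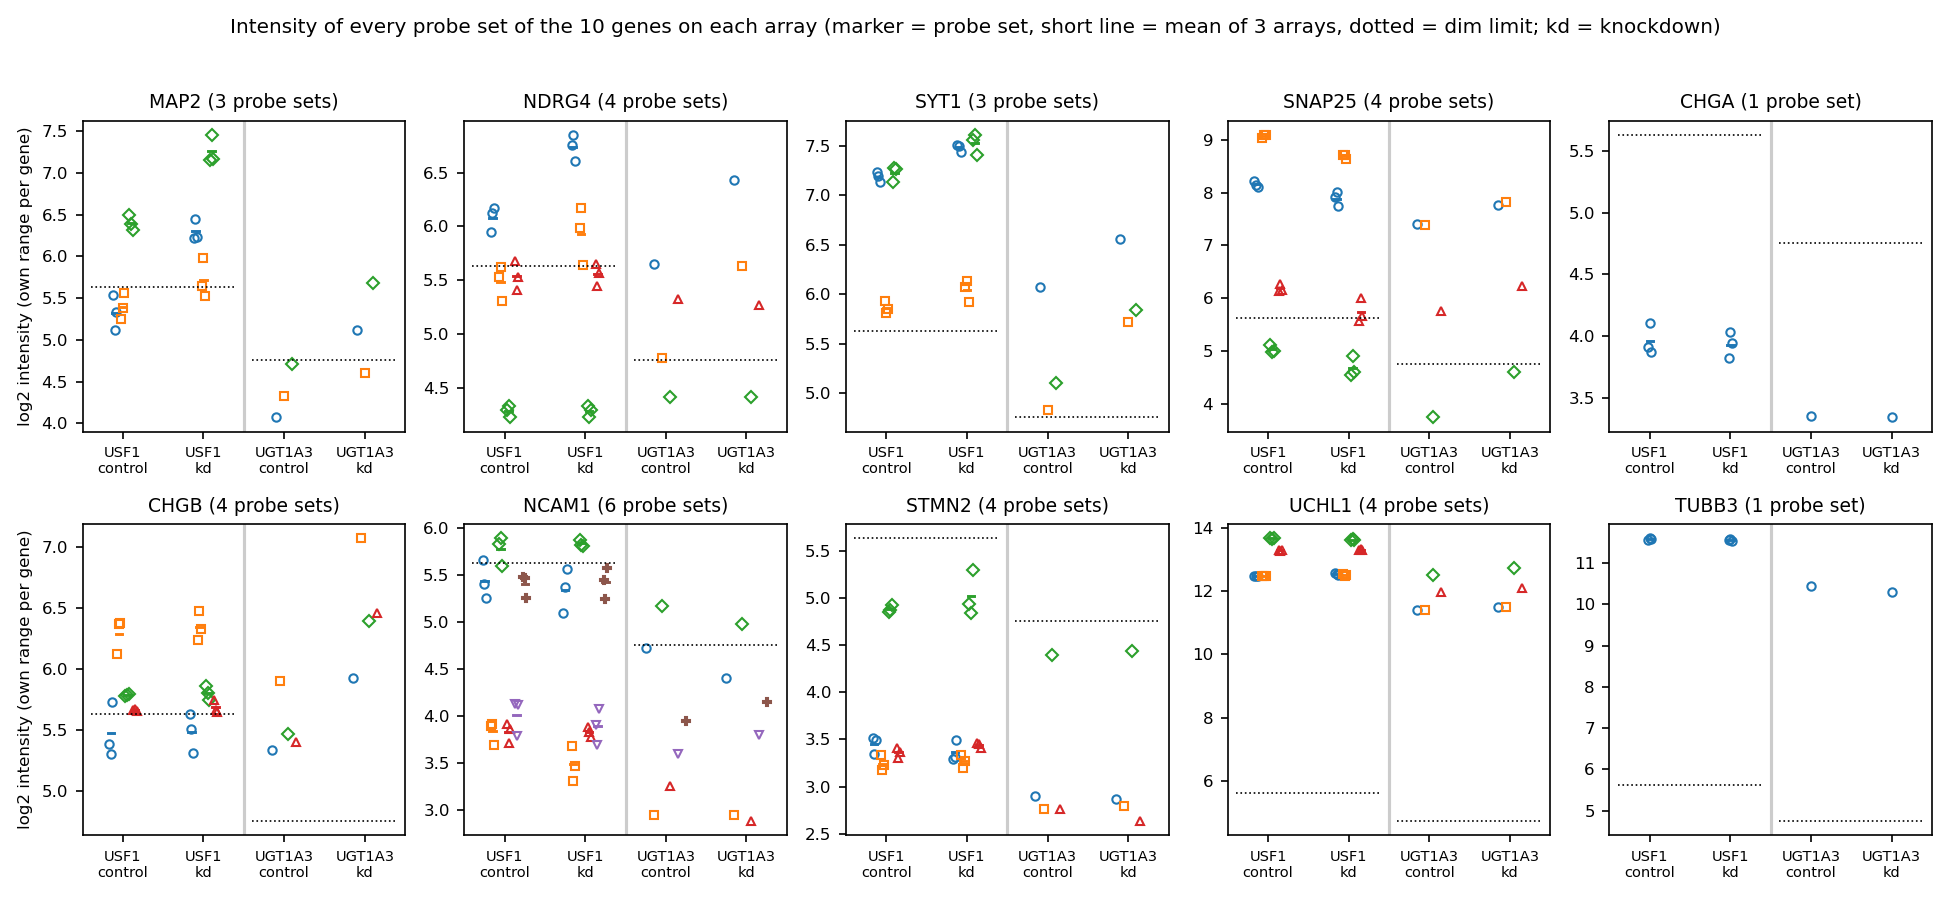
Log2 intensity (vertical axis, own range in each panel) of every probe set of the 10 genes on each of the 8 arrays, by group, with the marker giving the probe set, a short line the mean of 3 arrays and a dotted line the dim limit of the set. MAP2, NDRG4 and SYT1 hold probe sets whose USF1 knockdown arrays all lie above the controls, SNAP25 lies below its controls there, and CHGB stands higher on the UGT1A3 knockdown array.

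Among the microtubule genes, MAP2, which binds and stabilises dendritic microtubules, was higher in both knockdowns. Its brightest probe set (11736559_a_at) read 6.50, 6.39 and 6.32 in the USF1 controls and 7.16, 7.46 and 7.17 after USF1 knockdown. All 3 knockdown arrays lay above all 3 controls, by 0.86 on average (SE 0.09), or 182% of the control level. A second MAP2 probe set (11733832_a_at) read 5.53, 5.12 and 5.33 in the controls, under the dim limit, and 6.22, 6.45 and 6.24 after knockdown, a difference of 0.98 (SE 0.11). The third (11733833_a_at) was dim, differed by 0.31 (SE 0.13) and overlapped between the groups. UGT1A3 knockdown gave 5.68 on the brightest MAP2 probe set where its control, just short of the dim limit, gave 4.72, a difference of 0.96. The other MAP2 probe sets were dim there and differed by 1.05 and 0.28.

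TUBB3, the beta-tubulin used as a neuronal marker, was read by 1 probe set of the kind that can cross-hybridise with near-identical genes (11754593_x_at), so its signal may include other tubulins. It read 11.56, 11.60 and 11.58 in the USF1 controls and 11.55, 11.58 and 11.53 after knockdown. The groups overlapped, and the difference of -0.03 (SE 0.03, limma adjusted p = 0.555) did not pass. The UGT1A3 control read 10.44 and its knockdown 10.30. STMN2, a stathmin that frees tubulin from microtubules in growing axons, was dim in all 4 of its probe sets in both sets, between 3.17 and 5.30 on the USF1 arrays. Its differences ran from -0.08 to 0.14 after USF1 knockdown and from -0.12 to 0.05 in the UGT1A3 pair, all on signals under the limit.

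NDRG4, a member of the N-myc downstream-regulated family found mainly in brain and heart, gave a split reading. The probe set annotated to its RefSeq transcript (11736068_x_at) read 5.95, 6.13 and 6.17 in the USF1 controls and 6.75, 6.85 and 6.60 after knockdown, a difference of 0.66 (SE 0.08). The probe set 11743415_s_at read 5.53, 5.62 and 5.30 in the controls, all under the dim limit. After knockdown it read 5.99, 6.17 and 5.64, a difference of 0.45 (SE 0.14). In each of the pair the knockdown arrays lay above the controls, although the lowest knockdown array of the latter stood only just above its highest control. The other 2 NDRG4 probe sets, both annotated to one further transcript, were dim, overlapped between the groups and differed by -0.005 (SE 0.05) and 0.02 (SE 0.09). The same division appeared in the UGT1A3 pair. There the first probe set went from 5.65 to 6.43 and the second from 4.78 to 5.63, differences of 0.77 and 0.85, whereas the other 2 differed by 0.00 and -0.05. One of those last 2 was above the dim limit of the UGT1A3 set. Both NDRG4 probe sets that were higher end in _x_at or _s_at, kinds whose signal may include other genes. The only one ending in _a_at (11747283_a_at), dim in both sets, was flat, at -0.005 and 0.00. Without probe sets of those kinds 2 in place of 3 member genes passed 1.5-fold in the UGT1A3 pair. The relatives NDRG1, NDRG2 and NDRG3 did not pass after USF1 knockdown, at -0.15, 0.09 and 0.002 (limma adjusted p = 0.248, 0.296 and 0.963), and averaged over its probe sets NDRG3 gave 0.09 (limma adjusted p = 0.0384).

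Of the exocytosis genes, SYT1, the calcium sensor of vesicle fusion, rose after USF1 knockdown on 2 of its 3 probe sets. The probe set 11724587_a_at read 7.13, 7.27 and 7.26 in the controls and 7.56, 7.61 and 7.40 after knockdown, a rise of 0.30 to 124% of control (SE 0.06, limma adjusted p = 0.0106). The probe set 11724585_a_at rose from 7.24, 7.19 and 7.13 to 7.51, 7.50 and 7.44, by 0.29 (SE 0.04, limma adjusted p = 0.00184). In both the groups did not overlap. The dimmest SYT1 probe set (11724586_a_at) differed by 0.18 (SE 0.06, limma adjusted p = 0.0586) with 1 knockdown array, at 5.92, inside the control range. With each array centred on its median, or without USF1 knockdown 3, that probe set passed as well (limma adjusted p = 0.0453 and 0.0121). With UGT1A3 knocked down the 3 SYT1 probe sets, in the order given, went from 5.10, 6.08 and 4.83 to 5.85, 6.56 and 5.72, differences of 0.74, 0.48 and 0.90.

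SNAP25, the SNARE protein that SYT1 acts on at the plasma membrane, fell after USF1 knockdown on all 3 of its probe sets above the dim limit. The brightest (11733727_s_at) read 9.04, 9.10 and 9.09 in the controls and 8.70, 8.71 and 8.64 after knockdown, and fell by 0.39 to 76.3% of control (SE 0.04, limma adjusted p = 4.56e-04). The probe set 11733726_a_at read 8.21, 8.14 and 8.11 in the controls and 7.91, 8.004 and 7.74 after knockdown (-0.27, SE 0.07, limma adjusted p = 0.0217). The probe set 11750077_x_at read 6.13, 6.27 and 6.16 in the controls and 5.56, 6.00 and 5.66 after knockdown (-0.45, SE 0.11, limma adjusted p = 0.018). No knockdown array reached a control on any of the 4 SNAP25 probe sets, the dim one included (-0.35, SE 0.10). Over all tested probe sets, which leave out the dim ones, 24.0% lay lower without overlap. Only the brightest SNAP25 probe set kept its call when each array was left out in turn. The call of 11733726_a_at was lost without USF1 control 1, USF1 control 2 or USF1 knockdown 1 (limma adjusted p = 0.0751, 0.0552 and 0.0534) and with no dim limit (0.0544), and that of 11750077_x_at without USF1 control 2 or USF1 knockdown 1 (0.0621 and 0.0519).

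The sign was the other way in the UGT1A3 pair, where the brightest SNAP25 probe set went from 7.38 to 7.82. The 3 probe sets above the dim limit differed by 0.36 to 0.47, under the 1.5-fold mark, and the dim one by 0.86. The difference between the responses of SNAP25 to the 2 knockdowns was not tested.

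Of the granins, which drive the packing of dense core granules, CHGB was level in the USF1 set and higher in the UGT1A3 knockdown array. Its brightest probe set (11717475_a_at) read 6.13, 6.37 and 6.37 in the USF1 controls and 6.24, 6.47 and 6.33 after knockdown. The groups overlapped on all 4 CHGB probe sets, with differences of 0.01 to 0.06, and none of the 3 tested probe sets passed (limma adjusted p = 0.648 to 0.785). On the UGT1A3 arrays that probe set went from 5.90 to 7.07, a difference of 1.17 or 2.25-fold. The other 3 CHGB probe sets were all above the dim limit there and went from 5.34, 5.47 and 5.40 to 5.92, 6.40 and 6.46. Their differences were 0.59, 0.93 and 1.05. The difference between the CHGB responses to the 2 knockdowns was not tested. CHGA, by contrast with its relative, was dim in both sets: its single probe set lay between 3.82 and 4.10 on the 6 USF1 arrays, with overlapping groups, and read 3.35 and 3.34 in the UGT1A3 pair.

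NCAM1, the adhesion molecule known as CD56, had 6 probe sets, of which 1 reached the dim limit in each set of arrays. That probe set (11730720_a_at) read 5.83, 5.89 and 5.60 in the USF1 controls and 5.87, 5.82 and 5.81 after knockdown. The groups overlapped, and the difference was 0.06 (SE 0.08, limma adjusted p = 0.549). It went from 5.17 to 4.97 on the UGT1A3 arrays. The dim NCAM1 probe sets differed by -0.35 to 0.02 after USF1 knockdown and by -0.38 to 0.20 in the UGT1A3 pair. UCHL1 (PGP9.5), a deubiquitinating enzyme abundant in neurons, lay at the opposite end, with all 4 probe sets between 12.48 and 13.67 on the USF1 arrays. Its brightest probe set (11758672_s_at) read 13.67, 13.64 and 13.66 in the controls and 13.60, 13.63 and 13.61 after knockdown, without overlap but with a difference of only -0.05 (SE 0.03, limma adjusted p = 0.265). It passed with an intensity trend and a robust prior (limma adjusted p = 0.0378). Another, 11754803_s_at, also did not overlap but lay the other way, at 0.04 higher (limma adjusted p = 0.347), and the remaining 2 overlapped and differed by 0.01 and 0.02. On both UGT1A3 arrays 2 of the UCHL1 probe sets read the same values to 2 decimals, 11.39 and 11.48, so they add little to each other. The UCHL1 differences with UGT1A3 knocked down were 0.10 to 0.23.

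**Figure D2:**
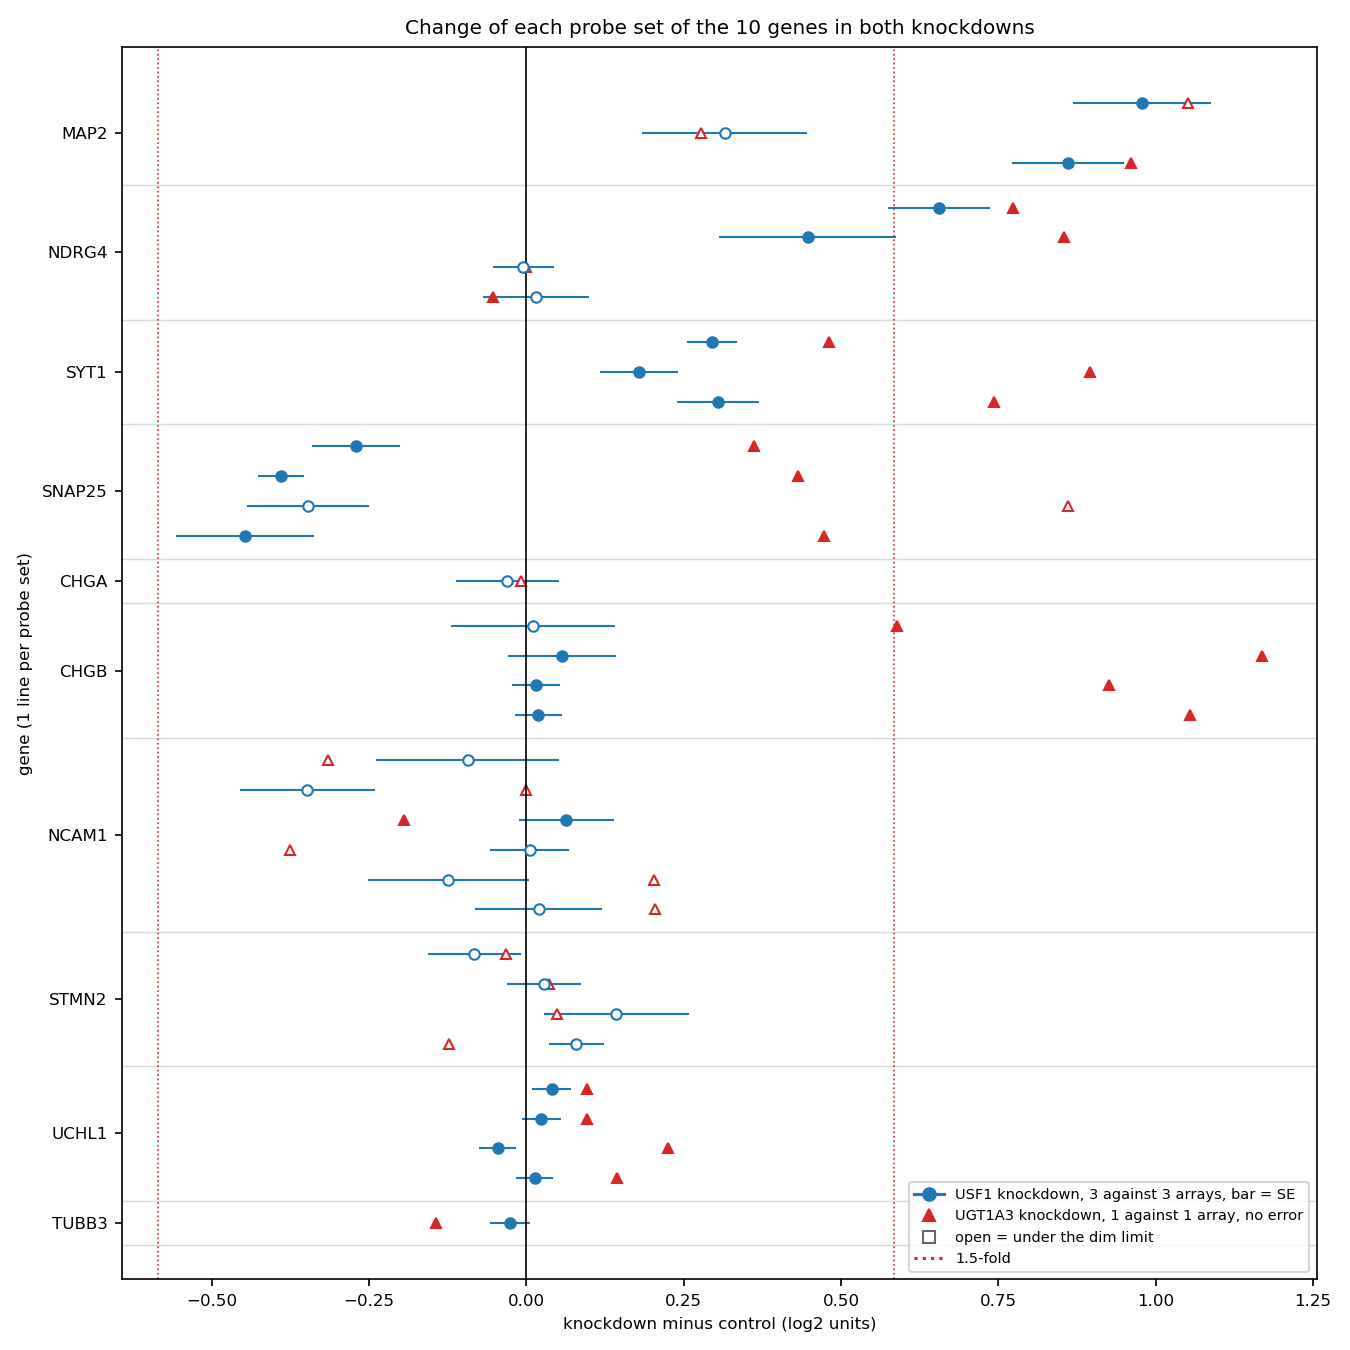
Knockdown minus control on the log2 scale (horizontal axis) for each of the 34 probe sets, with circles for USF1 knockdown (bars are the SE, 3 against 3 arrays), triangles for the UGT1A3 pair (1 against 1 array, no error), open symbols for dim probe sets and dotted lines at 1.5-fold. MAP2, SYT1 and 2 of the 4 NDRG4 probe sets lie to the right in both knockdowns, the SNAP25 circles lie left of 0 and its triangles right of it, and CHGB stands apart from 0 only in the UGT1A3 pair.

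Counted over the 34 probe sets, 19 of 8 genes were above the dim limit in the USF1 set and 15 were dim, with CHGA and STMN2 wholly dim. Of the 19, MAP2 11733832_a_at and NDRG4 11743415_s_at reached the limit only through the knockdown arrays. Leaving aside MAP2 and NDRG4, 15 probe sets of 6 genes were tested, of which 2 rose, 3 fell and 10 did not pass. Over all 29576 tested probe sets 37.3% passed, 19.8% upward and 17.5% downward, and nothing is read from the members' count, since the selection used this comparison. By each gene's brightest probe set, SYT1 rose, SNAP25 fell and 4 did not pass, where 38.7% of all 11448 tested genes passed, 20.9% upward and 17.8% downward. The count of 5 probe sets was 3 without USF1 control 2 or without USF1 knockdown 1. Groups that do not overlap were common in this comparison, at 51.2% of the tested probe sets, 27.3% with the knockdown higher and 24.0% with it lower. The median change was 0.02 over the 15 tested probe sets without MAP2 and NDRG4 and 0.01 over all tested ones. Probe sets of 1 gene share the gene and may share probes, so they are not independent readings.

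In the UGT1A3 pair 20 member probe sets of 8 genes were above the dim limit. The 1.5-fold mark was passed upward by 9, which were 4 of CHGB, 2 each of SYT1 and NDRG4 and 1 of MAP2, and downward by 0. Of all 29581 probe sets above the limit 3.48% passed it, 1.86% upward and 1.61% downward. That balance depends on the setting: 551 were higher and 477 lower, but 456 and 565 with each array centred on its median, 481 and 515 with quantile normalization, 275 and 352 with 16 units added, and 256 and 382 under a 60th percentile dim limit. Among those whose mean over the pair lay between 5.20 and 6.49, the range of the 9, it was 4.02%, with 2.96% upward and 1.06% downward. MAP2 and NDRG4 were selected for being higher here, and without them 6 of the 16 bright probe sets of the other genes passed upward, all of SYT1 or CHGB. By the brightest probe set 1 of the 6 genes other than MAP2 and NDRG4 passed the mark, CHGB, where 3.56% of 11620 genes did, 2.15% upward and 1.41% downward. The median difference was 0.45 over the 16 bright probe sets without MAP2 and NDRG4, 10 of them of SYT1, SNAP25 or CHGB, and 0.01 over all. With 1 array per group there is no replicate check, and these values describe 2 arrays. Nothing is read from the members' counts or median here either, since all the genes were chosen with earlier results of these data known. Under a 60th percentile dim limit 1 of the 9 probe sets stayed in the count. The SYT1 probe set 11724587_a_at was short of the mark with 16 units added, at 0.55, and the CHGB probe set 11717474_a_at with quantile normalization, median centring or 16 units added, at 0.55, 0.56 and 0.44.

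The wider neuroendocrine programme was read from lists of related genes, with each gene represented by its brightest probe set and the share of 38.7% over all genes as the background. Of 24 other neuroendocrine markers and factors 22 had a named probe set and 7 were tested, of which 1 rose and 2 fell. ENO2, neuron-specific enolase, rose by 0.15 (SE 0.03, limma adjusted p = 0.00791). DLL3, an inhibitory Notch ligand of neuroendocrine tumours, fell by 0.54 (SE 0.04, limma adjusted p = 1.86e-04), and the peptide neuromedin B (NMB) by 0.29 (SE 0.05, limma adjusted p = 0.00611). SYP, the synaptic vesicle protein synaptophysin, differed by -0.02 (limma adjusted p = 0.914) and was lower by 0.33 on the UGT1A3 knockdown array. INSM1, a neuroendocrine transcription factor, and the neuronal RNA-binding protein ELAVL4 stayed at or under 4.03 on every array. Other genes of the list were brighter: ISL1, DDC and ELAVL3 averaged 7.07, 6.34 and 5.86 in the USF1 controls. None of these passed after USF1 knockdown (limma adjusted p = 0.884, 0.817 and 0.609). The median change of the 7 was -0.01, and in the UGT1A3 pair 0 of 8 bright genes passed 1.5-fold.

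Of 22 tested genes for REST and its corepressors 2 rose and 3 fell, a share of 22.7%, with a median of 0.01. REST itself, singled out after its values were seen, differed by 0.08 (SE 0.03, limma adjusted p = 0.068) after USF1 knockdown and by -0.16 in the UGT1A3 pair. BTRC, the ubiquitin ligase subunit that marks REST for destruction, rose by 0.29 (SE 0.05, limma adjusted p = 0.00368), and the deacetylase HDAC2 fell by 0.15 (SE 0.03, limma adjusted p = 0.00933). None of the 22 bright genes of this list passed 1.5-fold in the UGT1A3 pair, where their median was -0.12. The count of 5 called genes was 2 without USF1 control 3, and 3 without USF1 control 1, without USF1 knockdown 1, with a replicate block or with no dim limit. It was 8 with 1 probe set per gene adjusted over genes, 8 with the mean of all probe sets, and 9 with an intensity trend and a robust prior.

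Of 50 genes of the synaptic vesicle and SNARE list with a named probe set 28 were tested. Of these 8 rose and 4 fell, 42.9% in all, with a median of 0.04. The synaptic vesicle genes SYN1, SYN2, SYN3, SV2A, SV2B and SV2C were dim, at or under 5.16 on the USF1 arrays. STX1A and RIMS2 were bright, at 9.20 and 8.30 in the USF1 controls, and did not pass (limma adjusted p = 0.287 and 0.52). The SNARE proteins VAMP3 and STX3 rose by 0.27 (SE 0.04) and 0.25 (SE 0.03), and the secretory Rab protein RAB27A by 0.32 (SE 0.04), while its bright probe sets ran from 0.06 to 0.32. RAB3B, a Rab protein of regulated secretion, fell by 0.48 (SE 0.03), and DNAJC5, the cysteine string protein that chaperones SNAP25, by 0.58 (SE 0.05). The limma adjusted p-values of these genes ran from 1.64e-04 for RAB3B to 0.0016 for RAB27A. In the UGT1A3 pair 1 of 30 bright genes was past 1.5-fold by the brightest probe set, VAMP8, which went from 4.24, short of the dim limit, to 5.37. CADPS2 differed by -0.20 on its brightest probe set and by down to -0.70 on others.

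Of 9 tested genes of the granin and dense core granule list 2 rose and 2 fell. VGF, a granin-like secreted precursor, fell by 0.82 (SE 0.04, limma adjusted p = 5.27e-05), and the granule membrane protein PTPRN2 by 0.43 (SE 0.04, limma adjusted p = 4.38e-04). SCG2 (secretogranin II) rose by 0.25 (SE 0.06, limma adjusted p = 0.0123). The list median was -0.04. The 7 bright genes of the UGT1A3 pair had a median of 0.35, where all bright genes had 0.02. VGF was higher by 0.52 and the peptide precursor ADM lower by 0.55, and by the brightest probe set none was past 1.5-fold. The bright ADM probe sets ran from -0.62 to -0.43, the lowest past that mark.

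The neuronal cytoskeleton list held 41 genes with a named probe set and takes in general tubulins such as TUBB and TUBG1. Of 30 tested genes 10 rose and 4 fell, 46.7% against 38.7% over all genes, with a median of 0.06. DCX, NEFL and NEFM were dim, at or under 4.40 on the USF1 arrays. INA and NEFH were bright, at 10.28 and 6.64 in the USF1 controls, and did not pass (limma adjusted p = 0.667 and 0.552). BASP1, a growth cone protein, rose by 0.42 (SE 0.03, limma adjusted p = 1.56e-04), and the microtubule-binding MAP7 by 0.38 (SE 0.05, limma adjusted p = 0.00188). DPYSL2, a collapsin response mediator, rose by 0.27 (SE 0.04, limma adjusted p = 0.00171). MARCKS, an actin and membrane-binding protein, rose by 0.35 on its brightest probe set (SE 0.03, limma adjusted p = 3.47e-04) and differed by -0.05 on its second. The count of 14 was 9 without USF1 control 1 or control 2, and 8 with no dim limit. By the brightest probe set 1 of 30 bright genes was past 1.5-fold in the UGT1A3 pair, the axonal microtubule protein MAP1B, lower by 0.64 on the knockdown array. GAP43 was higher by 0.25 on its brightest probe set and by up to 0.67 on others.

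In the neural adhesion list 1 of 8 tested genes rose, N-cadherin (CDH2), by 0.28 (SE 0.03, limma adjusted p = 7.84e-04), and 0 fell. CNTN1, a contactin of axons, differed by 0.13 (SE 0.06, limma adjusted p = 0.132) after USF1 knockdown and was the only one of 9 bright genes past 1.5-fold in the UGT1A3 pair, higher by 0.67, though short of that mark with 16 units added, at 0.52. Of 7 tested ubiquitin hydrolases and related genes 0 rose and 3 fell. UCHL3 and UCHL5, the relatives of UCHL1 by name, differed by -0.12 and -0.14. OTUB2, another deubiquitinating enzyme, was at -0.45 (SE 0.04, limma adjusted p = 3.57e-04) on its brightest probe set and up to 0.05 on others. The count of 3 was 1 without USF1 control 1 and 1 with no dim limit.

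Markers of other cell types were in part above the dim limit. Of the glial list 4 of 8 genes with a named probe set were tested: the receptor ERBB3 rose by 0.72 (SE 0.06, limma adjusted p = 2.80e-04) and the myelin protein MBP fell by 0.61 (SE 0.05, limma adjusted p = 2.43e-04). GFAP and SOX10 differed by 0.06 and -0.09 (limma adjusted p = 0.745 and 0.431), and the other 4 stayed at or under 5.34 on every USF1 array. Of the fibroblast list 1 of 7 genes was tested, of the leukocyte list 1 of 5 and of the endothelial list 2 of 5, and none of these 4 passed. Of 5 tested epithelial and lung markers KRT8 alone rose, by 0.25 (SE 0.04, limma adjusted p = 0.00278).

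**Figure D3:**
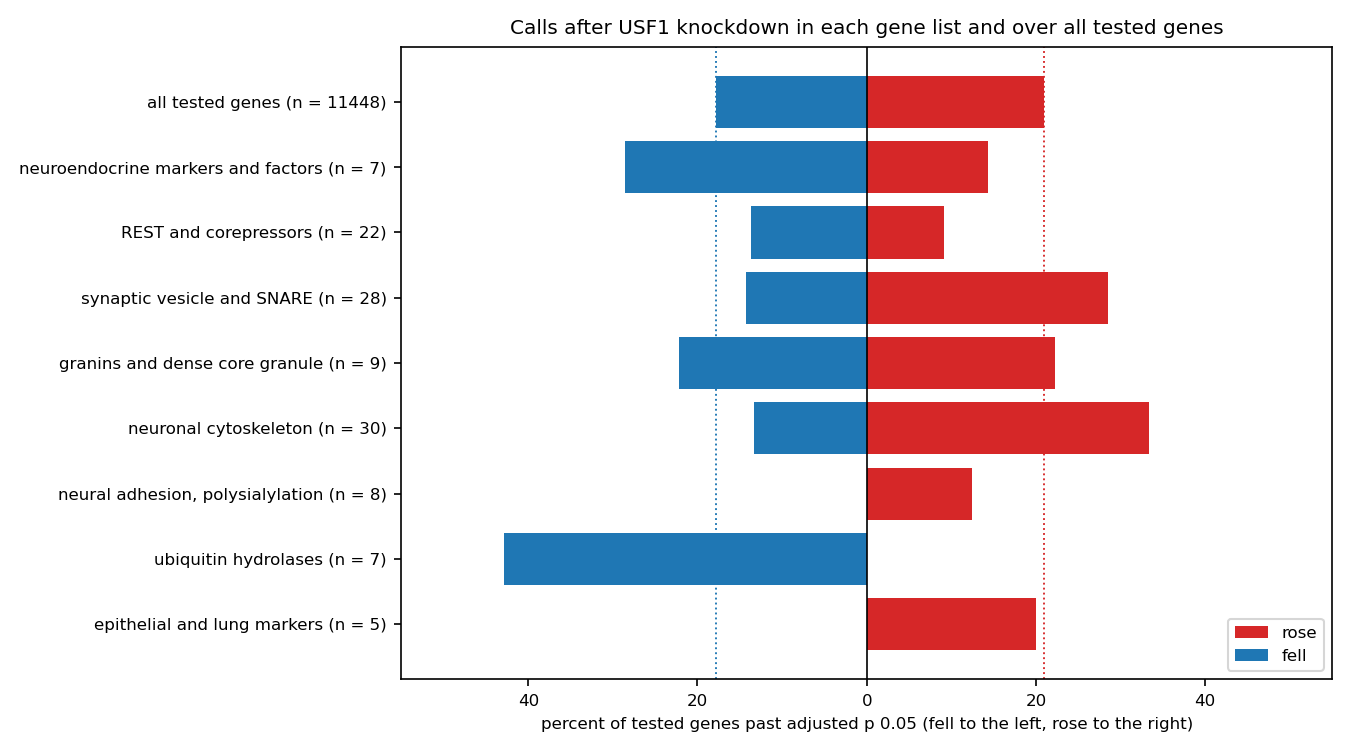
Percent of tested genes that passed an adjusted p of 0.05 after USF1 knockdown (horizontal axis, fell to the left and rose to the right) for all 11448 tested genes and for each list with at least 5 tested genes, with dotted lines at the shares of all genes. The bars stand for 10 rises and 4 falls of 30 cytoskeleton genes, 8 and 4 of 28 synaptic vesicle genes and 2 and 3 of 22 genes of the REST list, and for 1 to 4 calls in each list of 5 to 9 genes. No difference from all genes was tested, and the counts move with the setting.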

How the data were processed

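RNA of 8 H1299 samples was read on 1-colour arrays. The deposited values are log2 intensities, 1 for each probe set and array, a base inferred from their span. Per the submitters' processing notes MAS5 was used, with neither role nor version stated. The scaling between arrays was not stated in any source used. Of 49395 probe sets 102 were controls and were left out. Names came from the platform annotation (44988 probe sets with 1 symbol, 1832 with several, 2473 with none), and 44961 symbols were matched by Entrez number to a GRCh38.p14 gene table.

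Every probe set at or above the 40th percentile of set means was fitted with limma 3.58.1 (lmFit, eBayes, R 4.3.3), USF1 knockdown against control, without a block, with two-sided p-values adjusted by the Benjamini-Hochberg method over 29576 probe sets, at a threshold of 0.05. A gene in a list was represented by its brightest probe set. The UGT1A3 pair gave differences only, with 1.5-fold as the mark. Alternatives were quantile normalization, median centring, no or a 60th percentile dim limit, 16 units added before log2, a trend with a robust prior, a replicate block, 1 probe set per gene, the mean of all probe sets, each array left out, and, chosen after seeing the data, no probe sets ending in _s_at or _x_at. On simulated data for the USF1 comparison (29576 probe sets) the fit called 1 of 50 probe sets changed by 1.1-fold, 20 of 50 at 1.25-fold, 40 of 50 at 1.5-fold and 49 of 50 at 2-fold, with 3 false calls among 113. Only these few probe sets were changed there, whereas 37.3% were called in the real comparison. The adjustment was thus stricter in the simulation, and its rates do not carry over to the data.

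Named are all 10 genes, USF1, and in each list those among the 4 lowest adjusted p-values past the threshold (failing any, the 2 greatest changes) or the 2 greatest UGT1A3 differences, of which some were left out. Dim markers, REST and some bright markers were named outside this rule, after their values were seen. The members and lists were chosen with earlier results of these data known. Same-numbered arrays gave correlations of deviations of -0.09, 0.17 and 0.08, so the numbers were not taken as pairs.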

Additional observations from a re-analysis of the deposited data

How the results depend on the processing

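The counts rest on small lists, and most stayed within 1.5 times of their value: 182 recomputed counts did and 31 did not. With the replicate block, which shares only a number between samples, 9999 probe sets were called in all where 11030 were without it, 5 member probe sets with and without it, and 3 in place of 5 genes of the REST list. The member count of 5 probe sets was 2 under a 60th percentile dim limit, where 1 gene in place of 2 was called, 3 without probe sets ending in _s_at or _x_at, and 3 to 6 with an array left out. Without those probe sets 6725 probe sets were called in all, and 5 in place of 3 neuroendocrine genes, 7 in place of 12 synaptic vesicle genes, 2 in place of 1 adhesion gene and 1 in place of 3 ubiquitin hydrolases. With no dim limit the calls were 3 for the REST list, 8 in place of 14 for the cytoskeleton, 2 for adhesion, 1 for the ubiquitin hydrolases and 2 in place of 1 for the epithelial list. The REST list gave 9 with the trend and robust prior, 8 with 1 probe set per gene and 8 when probe sets were averaged. With an array left out the ranges were 2 to 6 for the REST list, 9 to 11 for the cytoskeleton, 1 to 2 for the ubiquitin hydrolases and 1 to 2 for the epithelial list. A change of sign where either value passed was seen for 2 genes, both on averaging a gene's probe sets: EHMT1 went from -0.12 to 0.0187 (limma adjusted p = 0.723) and USP14 from 0.001 to -0.0912 (limma adjusted p = 0.0375). Small values that passed in neither setting also changed sign, among them those of CHGB, NCAM1 and SYP with an array left out and of UCHL1 on averaging. In the UGT1A3 pair 1028 probe sets were past 1.5-fold, 627 with 16 units added and 638 under a 60th percentile dim limit. That limit left 1 of the 9 member probe sets, 1 of the 6 without MAP2 and NDRG4, and 1 of the 3 genes, since fewer probe sets were counted. Apart from the alternatives that test fewer or more probe sets or fewer arrays, the cause was not tested. The dim limit restricts what can be said of CHGA, STMN2 and most NCAM1 probe sets.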
